A study of Bos taurus with 16 samples.

Results

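Expression of 71 genes for the spliceosome and the heterogeneous nuclear ribonucleoproteins (hnRNPs) was compared between endometrial and blood CD14+ cells of 4 pregnant cows. A gene was a member if the gene name of its probe, or the symbol in brackets in the probe's description, began with SNRP, HNRP, HNRNP, SF3A, SF3B, SFRS, SRSF, PRPF or U2AF. The rule found 79 of the 21475 probes of the array, whose files hold 20602 distinct gene names, and the brightest probe stood for a gene. It used names and brightness, not the difference between tissues. Cows were at days 164, 239, 242 and 248 of pregnancy and are called animals 1 to 4. CD14+ cells were flow sorted from dispersed endometrium and from blood mononuclear cells of the same cow, at purities of 90 to 95% and 98 to 99%. Amplified RNA of both tissues was hybridized together on 2 Agilent bovine arrays per animal, with the dyes exchanged between the arrays in 3 of 4 animals. Endometrium was minced and digested with collagenase before sorting, a step that blood cells did not have and that cannot be told apart from tissue. Neither tissue received an experimental treatment, and nonpregnant cows were not part of the comparison.

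The spliceosome removes introns from pre-mRNA. It is built from small nuclear RNAs and their proteins, and the Sm proteins form a ring on most of these RNAs. U1 binds the 5′ splice site, U2 with SF3A and SF3B binds the branch site, and U2AF binds the 3′ splice site. The PRPF proteins mostly belong to the U4/U6.U5 tri-snRNP or to the complex that activates splicing. SR proteins bind exons and help the machinery find splice sites, while hnRNPs coat the transcript and often oppose that choice. These genes are active in nearly every cell, monocytes and macrophages included.

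The array read each gene through 60-base probes. Shown 5′ to 3′ are 30 bases of the probe for the genes with the lowest and highest log2 ratios and the 3 HNRNPK probes. The hexamers AATAAA and ATTAAA, the sequences of poly(A) signals, are in capitals. The 30 bases were placed to hold a hexamer where the probe had one, and were otherwise the first 30. The sequences show part of the stretch of RNA each value stands for. Where that stretch lies in the gene, and whether a hexamer acts as a signal there, was not looked up here.
SF3B4: ttgtaagtgtaattttttcacaggaggctt
SF3B6: ccctttagttaataagtgtctgtgtatatt
SNRPB2: gctaatggtagagacactttAATAAAagaa
SRSF5: acccacccaccctttaacagctgtctggca
SCAF11: caaggtgatggttctcagctacctatgaat
PRPF6: tcctgcttgttgATTAAAggttttctagta
HNRNPUL2: tggggcagtgaaAATAAAcgattggctctt
SUGP2: taatcatttagcagttgaAATAAAtgtaga
HNRNPK, probe 1: ggaggaaaagtaacagtagtccatatgtcc
HNRNPK, probe 2: aaccagccagctcccgctcgaatctgatgc
HNRNPK, probe 3: atttcatgggggtggtaaattgaaaacttc

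Levels are the authors' normalized log2 intensities, averaged over the 2 arrays of an animal, and a log2 ratio is the level in endometrium minus the level in blood of the same animal. All 71 members were bright enough to be tested, and 69 of them were well above background in all 16 channels. SNRPG was above background in 4 of 8 endometrial channels and ZRSR2 (U2AF1L2 in the files) in 6 of 8. Over the 17282 probes tested, 68.9% were above background in every channel. No member was saturated in any channel, and for arrays the number of animals limits the precision.

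No spliceosome or hnRNP gene passed the test for a difference between endometrial and blood CD14+ cells. The test was limma's moderated test of the log2 ratio against 0, with Benjamini-Hochberg adjustment over all probes, and a gene was called where the adjusted p did not exceed 0.05 and the fold change exceeded 2. It called 0 of 71 members higher in endometrium, where 1.19% of all probes were called, and 0 of 71 higher in blood, where 0.116% were. The lowest adjusted p of a member was 0.195. Each SE given after ± below is the moderated one of this test, drawn toward a spread shared by all probes. It is not the SE of the 4 animals alone. Without adjustment, 0 members were higher in endometrium with a limma p not above 0.05, against 7.78% of all probes. At that limit 6 members (8.45%) were higher in blood, against 7.83% of all probes. Because limma draws each gene's spread toward one shared by all probes, a mean ratio between -1 and 1 could not reach that limit. Such ratios were found in 59 of 71 members, beside 68.1% of all probes. The 6 higher in blood were SF3B4, SF3B6, SNRPB2, SRSF5, PRPF4 and U2AF1, and their share was near that of the array as a whole. That share differed between settings: from the scanner signals with normexp and loess it was 14 of 71 (19.7%) against 8.5% of all probes. When the 8 arrays were fitted one by one, with dye as a term, it was 13 (18.3%) against 10.3%. The methods' analysis of variance gave 10 (14.1%) against 5.25%, while 4 (5.63%) against 5.13% were found when the pairing by animal was left out.

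As a group, the members had log2 ratios slightly below those of the array. Their median log2 ratio was -0.39, beside -0.13 over all probes tested, and 51 of 71 (71.8%) lay below 0, beside 56.4% of all probes, while 20 lay above 0 (28.2%, beside 43.6%). The mean ratio of 59 members lay between -1 and 1. In 26 members (36.6%) the level was higher in blood in all 4 animals, beside 14.8% of all probes, and in 5 members (7.04%) it was higher in endometrium in all 4, beside 9.64%. These shares are descriptions, since genes of one sample are not replicates. The members also varied less between animals than other probes did, with a median SD of 0.64 beside 1.12, so an equal sign in 4 animals is not the same hurdle for both. The 2 arrays of an animal differed by a median of 0.13 in the members' log2 ratio.

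Animal 3 had the lowest ratios. The median over the members was -0.76 in this animal, beside -0.04, -0.28 and -0.20 in animals 1, 2 and 4. Over all probes the medians of animals 1 to 4 were -0.26, -0.11, -0.10 and -0.04. Animal 3 had the lowest of the 4 ratios in 42 of 71 members, beside 32.2% of all probes. It was also the animal hybridized without a dye exchange, and its endometrial channels had the smallest shares of spots well above background, 65.2% and 66.4%, where other channels had 68.4% to 82.9%. The part of these in the members' ratios was not tested. Without animal 3 the median was -0.31 and 3 members were higher in blood with an unadjusted limma p not above 0.05. Leaving out animal 4 also left 3 such members, though the median was then -0.49. The share of all probes at that limit is not given for these fits. Of 26 named members whose ratio was at least its SE, 12 moved by over 1.5 times without animal 3, among them SF3B4 (-1.13), SCAF11 (-0.43), PRPF4 (-0.81) and PRPF38A (-0.61).

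**Figure D1:**
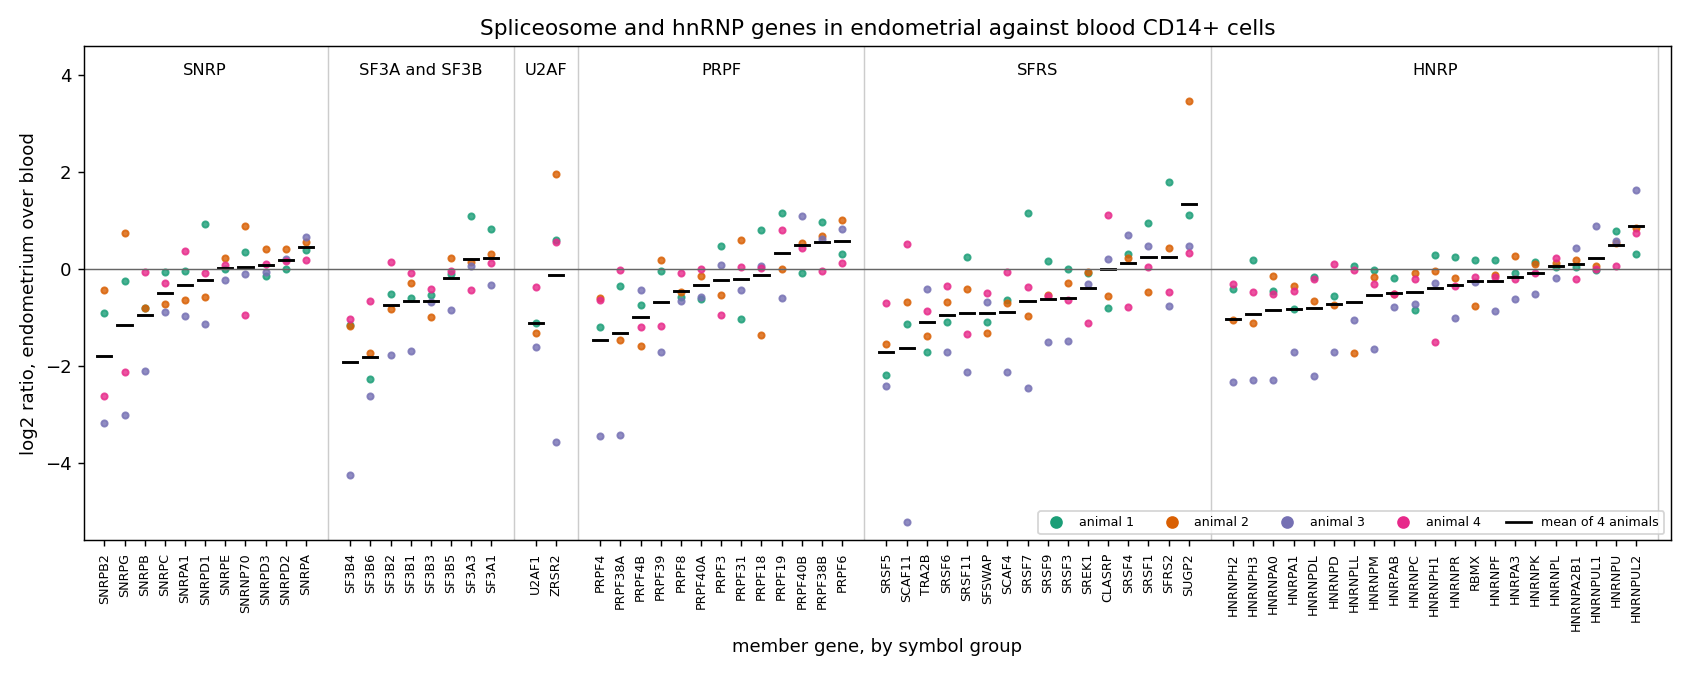
Log2 ratio of endometrium over blood (y axis) of the 71 member genes (x axis), grouped by symbol and ordered by mean within a group. Each point is 1 animal and each bar the mean of 4 animals; most bars lie between -1 and 1, and the points of animal 3 are the lowest in 42 genes.

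Among the small nuclear ribonucleoprotein genes (SNRP, 11 members), the median log2 ratio was -0.22, and 3 members were lower in endometrium in all 4 animals. SNRPB2, a protein of the U2 particle, had levels of 9.59, 9.69, 7.22 and 6.33 in the endometrium of animals 1 to 4 and of 10.51, 10.13, 10.41 and 8.95 in their blood. Each animal was higher in blood, but the tissues overlapped because blood of animal 4 lay below endometrium of animals 1 and 2. Its mean log2 ratio was -1.79 ± 0.61 (SE), a 3.47-fold lower level in endometrium, with an unadjusted limma p of 0.0214 and an adjusted p of 0.246. From the scanner signals the ratio was -1.10. SNRPB, an Sm ring protein, had a ratio of -0.94 ± 0.51 (SE). SNRPG, another ring protein, had one of -1.16 ± 0.71 with animal 2 on the other side of 0. SNRPG was dim in endometrium, as given above, and its ratio was -0.15 from the scanner signals, so its size is uncertain. Other ring proteins were nearer 0, with -0.22 ± 0.52 for SNRPD1 and 0.02 ± 0.44 for SNRPE. SNRPE had endometrial levels of 14.03 to 14.69 and blood levels of 14.04 to 14.47, so the tissues overlapped fully. The SD of its ratios over the 4 animals was 0.18, so its SE of 0.44 came mostly from the shared spread. SNRPA, which binds a stem loop of U1 RNA, was 0.45 ± 0.44 and higher in endometrium in all 4 animals.

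The SF3A and SF3B genes, which hold U2 on the branch site, had the lowest median of the larger groups, -0.66 over 8 members, and 4 of the 8 were lower in endometrium in all animals. SF3B4 had endometrial levels of 10.42, 10.83, 7.79 and 10.92 and blood levels of 11.58, 12.01, 12.04 and 11.96. The tissues did not overlap, and endometrium of animal 3 was the lowest sample by a wide margin. The mean ratio was -1.91 ± 0.67 (SE), or 3.76-fold lower, with an adjusted limma p of 0.254. SF3B6, the subunit that contacts the branch point adenosine, had endometrial levels of 7.92, 9.65, 8.26 and 10.49 and blood levels of 10.18, 11.39, 10.88 and 11.15. Every animal was lower in endometrium, the ratio was -1.82 ± 0.52 (SE), and its adjusted p of 0.195 was the lowest of any member. SF3B1, the large scaffold of the complex, had a ratio of -0.67 ± 0.49, and SF3A1, which joins SF3A to U2 RNA, one of 0.23 ± 0.46. The subunits of this complex thus spanned mean ratios from -1.91 to 0.23, with wide intervals.

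U2AF1, the subunit that reads the AG at the 3′ splice site, had endometrial levels of 14.34, 14.51, 14.45 and 15.31 and blood levels of 15.46, 15.83, 16.07 and 15.70. All endometrial samples were below all blood samples, with a ratio of -1.11 ± 0.47 (SE) and an adjusted limma p of 0.317. Groups did not overlap in 5 members higher in blood (7.04%, beside 3.27% of all probes) and in 1 higher in endometrium (1.41%, beside 2.63%). The 5 were SF3B4, SRSF5, U2AF1, HNRPA1 and HNRNPH2, the last named for this count after its values were seen. ZRSR2, which does the work of U2AF1 at minor introns, had a ratio of -0.12, with 1.96 in animal 2 and -3.57 in animal 3.

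The PRPF genes (13 members) had a median log2 ratio of -0.23. PRPF4, a protein of the U4/U6 particle, had endometrial levels of 7.64, 8.50, 5.87 and 9.63 and blood levels of 8.84, 9.10, 9.31 and 10.26. The ratios of the animals ran from -0.60 to -3.44, and their mean was -1.47 ± 0.62 (SE) with an adjusted limma p of 0.316. It was -0.74 from the scanner signals. PRPF38A, which joins with the tri-snRNP, was -1.31 ± 0.66, of which animal 3 gave -3.42 and animal 4 gave -0.02. PRPF4B, a kinase of the tri-snRNP, was -0.99 ± 0.46 and lower in all 4 animals. PRPF8, the protein at the catalytic centre, was -0.45 ± 0.44, and PRPF19, the ubiquitin ligase that gives its complex its name, was 0.34 ± 0.51 with 2 animals on each side of 0. At the other end stood PRPF6, a bridge within the tri-snRNP, at 0.57 ± 0.46, PRPF38B at 0.55 ± 0.46 and PRPF40B at 0.49 ± 0.46 (0.25 from the scanner signals). PRPF6 was higher in endometrium in all 4 animals, by 0.13 to 1.02.

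The SR proteins and the genes filed under SFRS symbols (16 members) had a median log2 ratio of -0.64. SRSF5 had endometrial levels of 12.67, 14.13, 13.06 and 14.80 and blood levels of 14.85, 15.69, 15.48 and 15.49. The tissues did not overlap, although endometrium of animal 4 nearly reached blood of animal 1. The ratio was -1.71 ± 0.50 (SE), 3.28-fold lower in endometrium, with an adjusted limma p of 0.205. TRA2B, an SR-like splicing activator, was -1.10 ± 0.47 and lower in all 4 animals. SCAF11, an SR-related protein, had a mean of -1.63 ± 0.92 that rested on animal 3, with ratios of -1.13, -0.68, -5.22 and 0.51. Of the other SR proteins with an SRSF number in the current names, SRSF3 (-0.60 ± 0.48), SRSF6 (-0.96 ± 0.47), SRSF7 (-0.66 ± 0.65), SRSF9 (-0.61 ± 0.49) and SRSF11 (-0.91 ± 0.55) lay below 0. SRSF1 (0.24 ± 0.48), SRSF2 (0.25 ± 0.57, SFRS2 in the files) and SRSF4 (0.11 ± 0.48) lay above it. SRSF4, SRSF6, SRSF9 and SRSF11 were added to this list after their values were seen. SUGP2, a G-patch protein filed as SFRS14, had the highest ratio of any member, 1.34 ± 0.64. From the scanner signals it was 0.74, below the 0.85 of HNRNPUL2, and without animal 2 it was 0.64. Its endometrial levels were 8.98, 9.80, 9.03 and 8.53 and its blood levels 7.86, 6.34, 8.56 and 8.19, and animal 2 gave 3.46 of log2 ratio where the others gave 0.33 to 1.12.

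**Figure D2:**
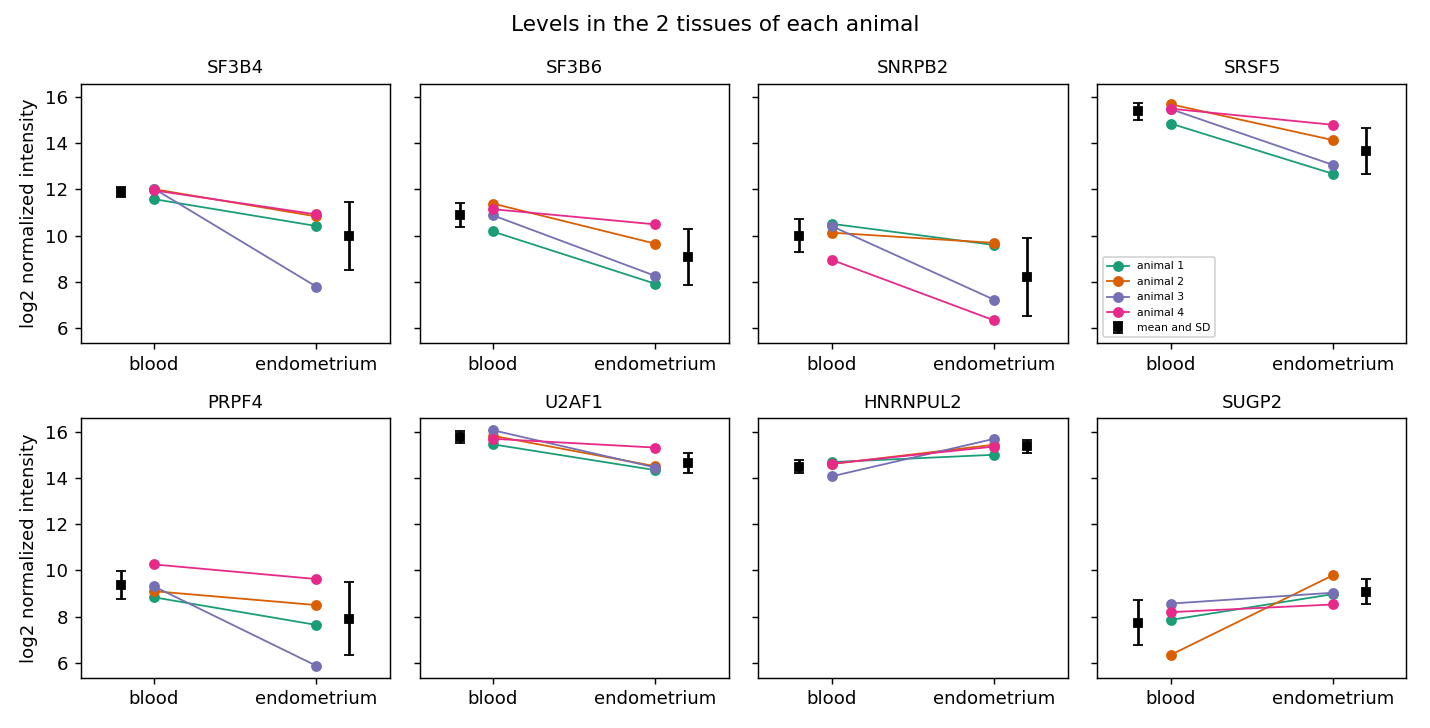
Normalized log2 intensity (y axis) in blood and endometrium of each animal for the 6 members with an unadjusted p not above 0.05 and the 2 with the highest ratio. Coloured lines join the tissues of 1 animal, and black squares with bars are the mean and SD of 4 animals; SF3B4, SRSF5, U2AF1 and HNRNPUL2 are the panels in which the tissues do not overlap.

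The hnRNP genes (21 members) had a median log2 ratio of -0.39, and none of them had an unadjusted limma p at or under 0.05 in either direction. The mean ratio of 20 of them lay between -1 and 1, where that p could not be reached in this fit. HNRNPA2B1 and HNRNPL had ratios near 0, of 0.11 ± 0.44 (SE) and 0.05 ± 0.44. HNRNPC, which packages nascent transcripts, had one of -0.47 ± 0.45 and was lower in endometrium in all 4 animals. HNRNPL levels were 14.72, 15.24, 14.96 and 15.45 in endometrium and 14.67, 15.11, 15.15 and 15.23 in blood. The samples of both tissues were interleaved, and the 95% interval of its ratio ran from -0.98 to 1.08. The SD of its ratios over the 4 animals was 0.18. HNRNPD, which binds AU-rich elements of mRNA, was -0.73 ± 0.50. The probe named HNRPA1 had endometrial levels of 14.63, 15.22, 14.29 and 15.30 and blood levels of 15.45, 15.58, 15.99 and 15.75, without overlap, and a ratio of -0.83 ± 0.48. HNRNPA1 has many near-identical copies in mammalian genomes. A different probe that the reference now names HNRNPA1, described in the files in lower case letters and so outside the rule, gave -0.22 ± 0.56. It was 1 of 5 tested probes for hnRNP A1 and A2/B1 copies outside the rule, whose ratios ran from -0.61 to 0.93. HNRNPU, a large protein that also binds chromatin, was 0.49 ± 0.44 and its relative HNRNPUL2 was 0.88 ± 0.47. HNRNPUL2 had endometrial levels of 15.004, 15.44, 15.70 and 15.36 and blood levels of 14.69, 14.60, 14.07 and 14.62, so that every endometrial sample was above every blood sample. Its adjusted limma p was 0.408.

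For 7 symbols of the files the array held more than 1 probe, and their ratios were compared. HNRNPK, an hnRNP that binds C-rich RNA, had 3 probes whose first 30 bases are printed above. Probe 1, the brightest, had ratios of 0.15, 0.09, -0.52 and -0.08 in animals 1 to 4, with a mean of -0.09. Probe 2 had a mean of -0.17. Probe 3 had ratios of -2.29, -1.39, -3.35 and -0.29, with a mean of -1.83 ± 0.61 (SE). The files describe probe 3 as transcript variant 2. They give all 3 probes the same transcript record, so this label does not set probe 3 apart. Its endometrial levels were 7.62, 10.47, 8.32 and 11.61 and its blood levels 9.90, 11.86, 11.68 and 11.90. Probe 3 was below probe 1 in 4 of 4 animals, by a mean of 1.74 on the log2 scale. The exact two-sided sign-flip p of that difference was 0.125, the smallest that 4 animals can give, and 7 such differences between probes filed under 1 symbol were compared. In the other 6, the mean ratio of the dimmer probe minus that of the brightest ran from -0.54 to 0.19. The lowest was HNRNPA2B1, whose brightest probe gave 0.11 and whose second gave -0.43, with an exact sign-flip p of 0.25. One of the 7 was no comparison within a gene, since the HNRNPG-T symbol covered 2 genes that the reference names RBMX and RBMXL2, with ratios of -0.26 and -0.14, and another probe filed as RBMX gave 0.34.

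**Figure D3:**
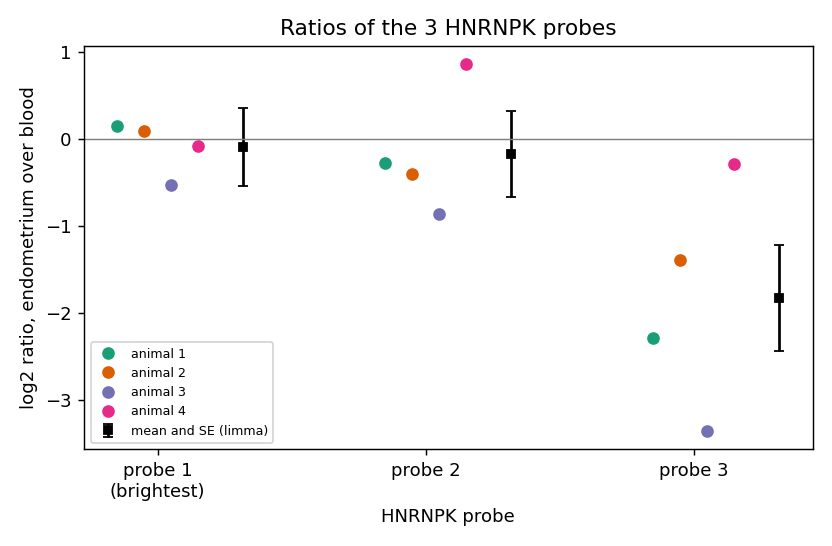
Log2 ratio of endometrium over blood (y axis) for the 3 probes of HNRNPK (x axis). Points are the 4 animals and squares with bars the mean and limma SE; probe 3, at a mean of -1.83, lies below probe 1 in every animal.

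The member probes differed from the array in base composition. Their median GC content was 38.3%, with a range of 23.3% to 60%, beside 43.3% over all probes tested. AATAAA occurred as printed in 17 member probes (23.9%) and in 13.2% of all probes, and on the other strand in 5.63% and 4.13%. ATTAAA occurred as printed in 5 member probes (7.04%) and in 4.31% of all, and on the other strand in 4.23% and 2.81%. Across the 71 members, the log2 ratio and the GC content had a Pearson r of 0.27 and a Spearman rho of 0.33, and across all probes tested they had -0.01 and 0.03. Genes share samples, arrays and normalization, so these are descriptions. The 37 members under 40% GC had a median ratio of -0.60 and the 27 from 40% to below 50% one of -0.33, while all probes in the same classes had -0.17 and -0.12. The 7 members at 50% or more had 0.23, and all such probes -0.10.

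Other genes of the pathway were also mostly below 0. Of 125 symbols of other splicing factors, 111 had a probe and 106 were tested. Their median log2 ratio was -0.20, and 67.9% of them lay below 0, beside 56.4% of all probes. In all 4 animals, 28 were higher in blood (26.4%, beside 14.8%) and 4 higher in endometrium (3.77%, beside 9.64%). None was called. At an unadjusted limma p up to 0.05, 3 (2.83%) were higher in blood, a smaller share than the 7.83% of all probes. These were PPIL1, SRRM2 and CHERP. The mean ratio of 90 of the 106 lay between -1 and 1, where that limit could not be reached in this fit. PPIL1, a peptidyl-prolyl isomerase of the active spliceosome, had a ratio of -1.83 ± 0.52 (SE), and SRRM2, an SR-related coactivator, one of -1.64 ± 0.49. DDX42, a helicase that binds SF3B, was the 1 higher in endometrium at that limit (0.943%, beside 7.78% of all probes). Its ratio was 1.68 ± 0.60, with animal 4 at -0.20. DDX42 was above background in 4 of 8 blood channels, with blood levels of 3.34 to 5.83, so the size of its ratio is uncertain. In animal 3 the median of the list was -0.92, again the lowest of the 4 animals.

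Other families active in nearly every cell gave smaller shifts or were less even in sign. The median log2 ratio was -0.04 for 69 ribosomal proteins, -0.31 for 47 translation factors and -0.20 for 42 proteasome subunits. Higher levels in blood in all 4 animals were found in 2 ribosomal proteins (2.9%), 9 translation factors (19.1%) and 7 proteasome subunits (16.7%). The share of all probes was 14.8%, and none of the 3 families had a called member. No test of the difference between these families and the members was run, so the members' -0.39 is not shown to be particular to them.

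**Figure D4:**
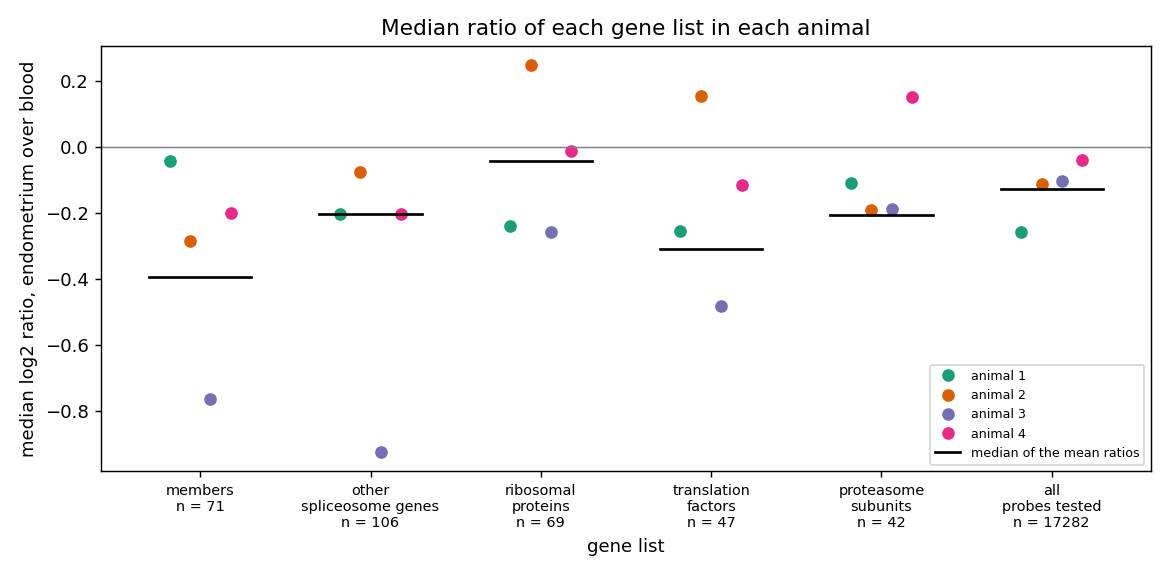
Median log2 ratio of endometrium over blood (y axis) in each animal (points) and median of the mean ratios (bars) for the members, 4 other gene lists and all probes tested (x axis, with the number in each). Animal 3 is lowest for the members, at -0.76, and also for the other spliceosome genes (-0.92), translation factors (-0.48) and ribosomal proteins (-0.26).

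The median of each list of cell type markers was further from 0 than the members' -0.39, though some single markers were not. CD14 itself had a log2 ratio of -0.17 ± 0.60 (SE) and endometrial levels from 6.07 to 14.04, and the macrophage list as a whole had a median of 2.26 with 4 of 6 higher in endometrium and none called. Epithelial markers had a median ratio of 4.41 with 6 of 7 called higher in endometrium, and trophoblast markers 5.22 with 6 of 6 called. Stromal markers had 3.65 with 2 of 6 called, endothelial markers 2.08 with none of 4, and T and NK cell markers 1.52 with 1 of 10. COL3A1, 1 of the 2 stromal calls, was above background in 2 of 8 blood channels. Immediate early and heat shock genes had 1.95 with 2 of 10 called. B cell markers (-2.57, none of 5 called) and granulocyte markers (-2.67, 2 of 4 called) were higher in blood by median ratio. The 2 granulocyte calls, IL8RB and CCR3, were above background in 2 of 8 endometrial channels, so they passed the filter through blood alone. S100A8 and S100A9 were not called and were higher in endometrium in animals 3 and 4. In animal 3 the B cell median was -4.44, the lowest of the 4 animals, and the granulocyte median was -1.39. Granulocyte medians of animals 1, 2 and 4 were -4.48, -4.41 and -1.23. The mean level of the epithelial list ran from 10.78 to 14.50 in endometrium and from 6.64 to 9.28 in blood, and that of the B cell list from 7.77 to 11.97 and from 10.78 to 13.53. The part of these cells in the members' ratios was not tested, and in RNA of sorted cells fewer cells of a type and less RNA per cell cannot be told apart.

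With 4 animals the precision was low. The median SE of a member's log2 ratio was 0.48, and its 95% interval reached a median of 1.13 to either side. The moderated SE draws each gene's spread toward a prior SD of 1.14, set over all probes, where the members' median SD was 0.64. In 0 of 71 members did the whole interval lie between -1 and 1. With this prior no interval could be that narrow, even for a gene without spread, so this count was fixed by the fit. Other settings gave narrower intervals. The median SE was 0.27 from the scanner signals and 0.38 with the spread pooled by intensity, a setting chosen after seeing the data, and the whole interval then lay between -1 and 1 in 26 and in 15 members. The scanner signals carried an added constant of 50, beside median spot intensities of 48 to 403 per channel. The part of this constant in the narrower intervals was not tested. The absence of calls does not show that the tissues expressed these genes alike.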

How the data were processed

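RNA of CD14+ cells from 4 cows was hybridized to 8 2-colour Agilent arrays. The authors' deposited values are log2 intensities to which they had applied lowess and then quantile normalization of 16 channels. The deposited scanner files give spot intensity and background (Feature Extraction 10.5.1.1 in the headers, 9.5 in the submitters' processing notes). Columns of values were matched to scanner files by the rank order of the processed signal. Each scanner value was replaced by the column's own value of equal rank. Every column then matched, within 0.001 log2, a scanner file deposited under the animal's other array, in the dye its label names. The match is thus one of order, not of intensity. Scanner channels were read crosswise for this reason, a choice made after the values were seen.

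Spots of a probe were averaged, the 2 arrays of an animal averaged, and the endometrium minus blood log2 ratio tested against 0 with limma 3.58.1 (lmFit, eBayes; R 4.3.3, statmod 1.5.0, and version 1.17.8 of data.table), adjusted by Benjamini-Hochberg over 17282 probes well above background in at least 4 of 8 channels of 1 tissue. Tissues were paired by the animal number in the labels; deviations of an animal's tissues correlated with r of 0.62, 0.37, 0.23 and 0.45. Fits were tested on simulated data. Members and lists were chosen with earlier results of these data known. Named members were those called, the 10 highest and 10 lowest ratios, and 26 fixed core genes, of which 24 had a tested probe. Of 79 member probes, 17 were renamed by accession and 56 by gene identifier through a table of assembly ARS-UCD2.0, and 6 were not matched. The second HNRPUL1 probe, above background in 0 channels, was not tested. Alternatives changed the signal, normalization, filter, pairing, technical replicates, dye term, animals, probe per gene and test. The alternative from scanner signals used normexp with an offset of 50.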

Additional observations from a re-analysis of the deposited data

Results flagged for a closer look

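SF3B4 in animal 3 had a log2 ratio of -4.25, far from the -1.18, -1.17 and -1.04 of the other 3 animals. It was the 1 such sample among 35 named members and 6 list medians, and chance alone would mark about 1 in 20 groups of 4.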

How the results depend on the processing

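No member was called under the main setting or any of 15 alternatives, and the lowest adjusted p of a member in any of them was 0.052 (SRSF5, spread pooled by intensity, an alternative chosen after seeing the data). The members' median log2 ratio stayed between -0.31 and -0.52. All 524 comparisons of a named member with its main value kept their direction, or changed sign within 1 SE of 0, a limit set after the members' values were seen, and none crossed the threshold. Of 26 named members whose ratio was at least its SE, 5 moved by over 1.5 times with scanner signals, 12 without animal 3, 2 without animal 2, and 1 each without animal 1 and with technical replicate 1 only. The median of all probes moved from -0.13 to -0.02 with the scanner signals, where the members' median was -0.37. The cause of each change below was not tested, unless fewer probes or animals entered by construction. Members higher in blood with an unadjusted p not above 0.05 were 6 in the main setting (8.45%, beside 7.83% of all probes). They were 14 with scanner signals (19.7%, beside 8.5%), 13 with 8 arrays and a dye term, and 11 with the spread pooled by intensity. The methods' analysis of variance gave 10 of them, and leaving out 1 animal gave 3 to 5. Members higher in endometrium were 0 in the main setting, where ratios between -1 and 1 could not reach that limit, beside 7.78% of all probes. There was 1 with scanner signals (1.41%, beside 6.27%) and 1 without a filter (1.41%, beside 6.09%). Technical replicate 2 only, the spread pooled by intensity and 8 arrays also gave 1 each. There were 2 without the replicate block and 3 with the methods' analysis of variance, and leaving out 1 animal gave 0. Where the share of all probes is not given, here or above, a count does not show whether the members or the whole array moved. Over all probes, 205 were called higher in endometrium and 20 in blood. These were 9 and 0 with scanner signals, 115 and 8 without a filter, 132 and 10 with the stricter filter, 35 and 3 without the replicate block (pairing), and 0 and 0 with the methods' analysis of variance. Calls higher in blood were 12 with the processed signal, 13 with technical replicate 1 only and 36 with 8 arrays. Leaving out 1 animal gave 0 to 180 higher in endometrium and 0 to 4 in blood, with the lowest counts when animal 4 was left out.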
